A study of Rattus norvegicus with 20 samples.

Results

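DNA repair genes were followed here in the mPFC (medial prefrontal cortex) of rats that had been treated with LSD (lysergic acid diethylamide) over a long period and then left without the drug. The genes were chosen by symbol alone. They are those named after the Xrcc, Ercc, Fanc, Msh, Mlh, Pms, Neil, Lig, Parp, Brca and Apex series. Of the Rad series, only symbols that begin with Rad1, Rad2 or Rad5 were taken, hence not *Rad9a* or *Rad9b*. *Atm*, *Atr*, *Nbn*, *Ogg1* and *Ung* were added by name. This gave 81 symbols among the 31038 in the deposited matrix, and 75 of them were kept by a filter that asked for 5 or more reads in 10 or more of the 20 libraries, as were 16605 genes in all. The LSD group held 10 male Sprague-Dawley rats injected intraperitoneally with 0.16 mg/kg LSD every other day for 90 days, and the Saline group held 10 male rats of the same strain injected with sterile saline on the same schedule. All were aged 6 to 8 weeks at the start per the labels and carried no genetic modification that the labels name. Tissue was taken after 3 weeks of discontinuation per the labels, whereas the methods of the study give a longer interval and older rats, with the same entries for LSD and Saline. RNA from 1 hemisphere was poly(A)-selected and sequenced with 1 library per rat, so that levels are those of the whole dissected tissue, in which fewer cells of a type and less RNA per cell cannot be told apart. Each value is given as TMM-normalised RPM, that is, a gene's reads relative to the size of its library, which is adjusted by the TMM factor of edgeR. These values are not divided by transcript length and are therefore compared only between rats, within a gene.

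The libraries held 16346629 to 25552681 reads on genes in the LSD group and 11098076 to 24201351 in the Saline group. Defining markers of neurons, astrocytes, oligodendrocytes and their precursors, microglia and endothelial cells were detected in every rat. The 5 oligodendrocyte markers summed to a median of 3510 normalised RPM (1980 to 5328) in LSD-treated rats and 4350 (1937 to 6941) in controls, all 5 with negative log2 fold changes and none past the threshold. The 4 markers of striatal neurons summed to a median of 118.9 normalised RPM (94.2 to 178) in LSD-treated rats and 144.9 (109.2 to 272.2) in controls. Their log2 fold changes had a median of -0.71 and ranged from -0.84 to -0.27. All 4 had an unadjusted p under 0.05 by edgeR, and none passed the adjusted threshold. Of the 6 neuronal markers, only *Gad2* passed it, with a log2 fold change of 0.23. The part of these shifts in the results below was not tested.

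DNA is damaged continually by oxidation, hydrolysis, replication errors and strand breakage, and cells answer with separate pathways. Base excision repair removes small altered bases, nucleotide excision repair cuts out bulky lesions and clears stalled transcription, mismatch repair corrects replication errors, and breaks across both strands are either joined end to end or copied from the sister chromatid by homologous recombination. The Fanconi anaemia proteins deal with crosslinks, and the kinases Atm and Atr signal damage to the cell cycle and the repair machinery. Neurons no longer divide, so that they depend mainly on excision repair and end joining, and inherited defects of several of these genes cause neurological disease.

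Of the 75 DNA repair genes, 10 were higher in LSD-treated rats and none was lower at an adjusted p under 0.05 in the quasi-likelihood test of edgeR, adjusted by the Benjamini-Hochberg method over all genes. The 10 genes are *Rad21l1*, *Atm*, *Rad50*, *Brca1*, *Ercc5*, *Msh6*, *Fanci*, *Ercc6*, *Parp8* and *Fancm*. They make up 13.3% of the DNA repair genes, while 6.48% of all genes tested were higher and 8.54% were lower. The median log2 fold change of the 75 genes was 0.07, against 0.00 for all genes tested, and 58 of the 75 were positive, against 8368 of 16605. At an unadjusted p under 0.05 in either direction there were 20 of the 75 DNA repair genes, the 10 above among them. Over all genes there were 5111 of 16605, which is a larger share. DESeq2 called 11 higher and none lower (8.18% and 10.5% of all genes), and these 11 hold 9 of the 10, with *Brca2* and *Ercc6l2* added and no adjusted p returned for *Rad21l1*. The share of calls moved with gene span, the distance from start to end of a gene in the GRCr8 annotation. Of all genes tested with a span above 32092 bases, the median of the DNA repair genes, 13.5% were higher and 3.19% lower in LSD-treated rats, while of those with shorter spans 2.06% were higher and 13.5% lower. Of the DNA repair genes, 8 of the 37 above this span were higher (21.6%) and 2 of the 38 with shorter spans (5.26%). The median span was 55084 bases for the 10 called genes and 30713 bases for the remaining 65. With offsets that level each rat's counts along gene span, 6 DNA repair genes were higher and none lower (8%, against 3.41% of all genes tested higher and 6.73% lower). Scaling by total counts gave 12 DNA repair genes higher and none lower (9.06% and 5.17% of all genes), and it moved the share of lower genes among all calls from 56.9% to 36.3%. The 6 genes called with span offsets are *Rad21l1*, *Atm*, *Rad50*, *Brca1*, *Ercc5* and *Msh6*, and all 6 are among the 10.

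**Figure D1:**
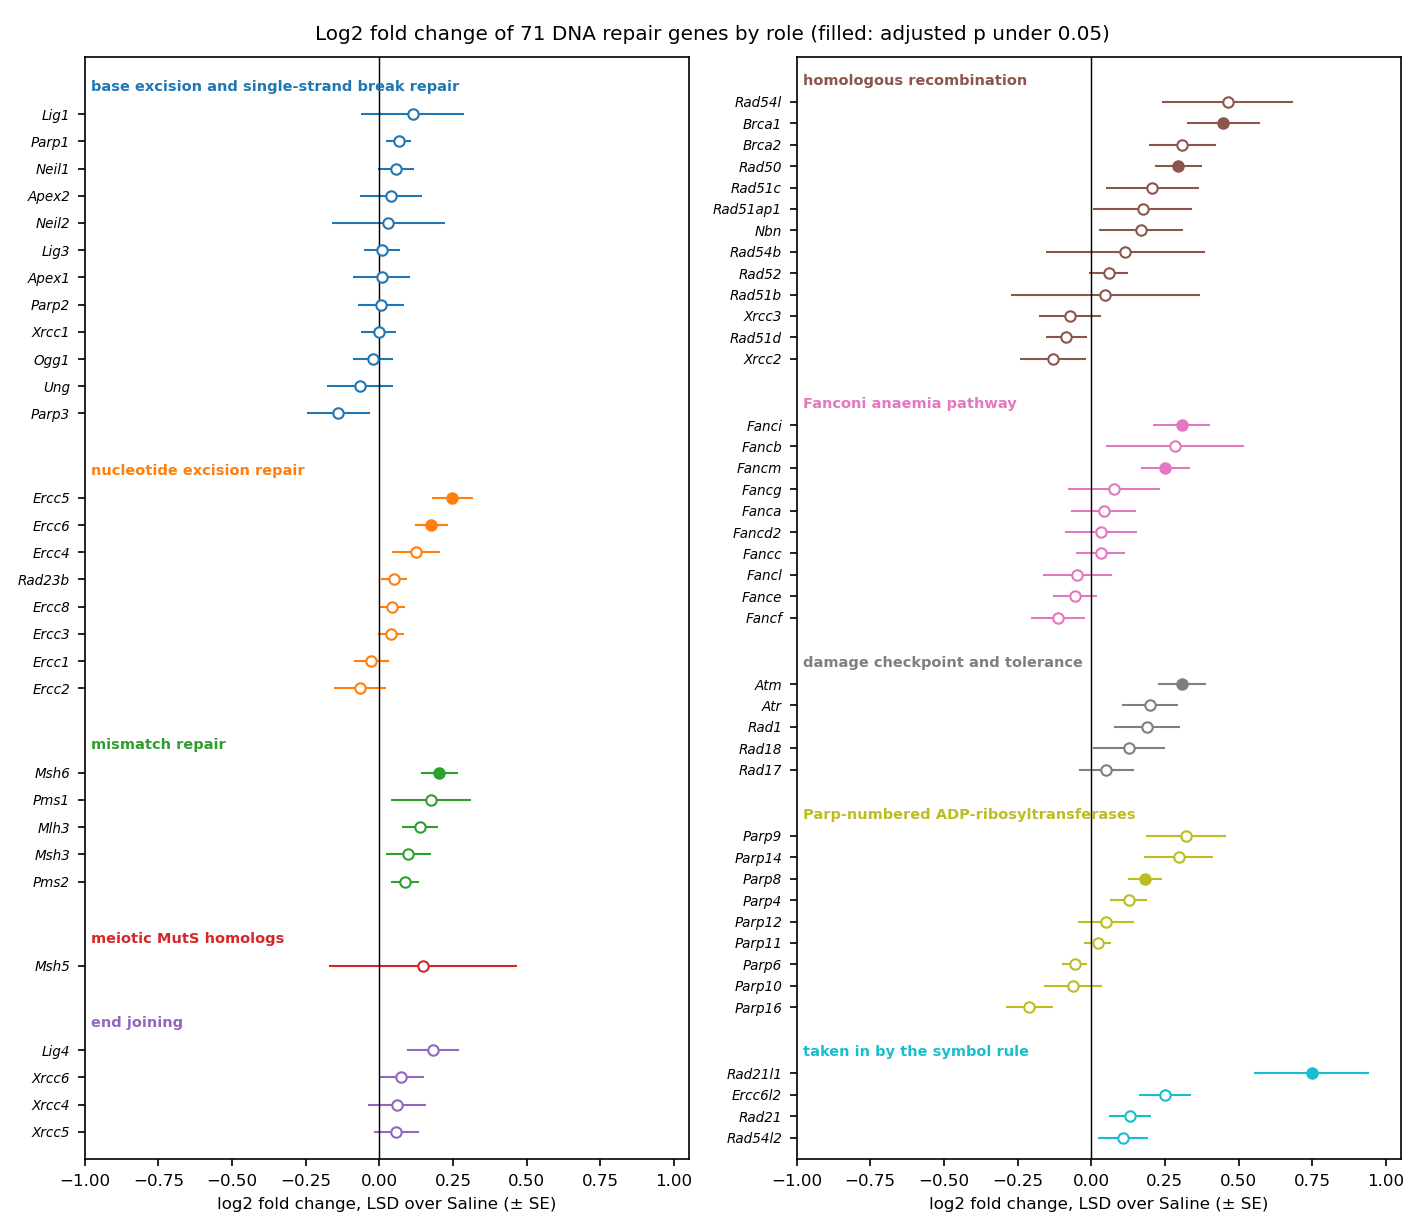
Log2 fold change of 71 of the 75 DNA repair genes between LSD-treated and saline-treated rats, grouped by role, with bars of 1 standard error and 10 rats per group; filled points passed the adjusted threshold. All filled points lie to the right of 0, between 0.18 and 0.75, whereas the base excision genes lie close to 0.

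Promoters are shown for the 6 genes called both with and without span offsets, a choice made on the calls alone. Each run gives the 250 bases before the gene's start in RefSeq's GRCr8 annotation, 5′ to 3′ along the gene. The windows lie at chr8:62828630-62828879 (*Atm*, minus strand), chr10:38362101-38362350 (*Rad50*, minus), chr10:86977582-86977831 (*Brca1*, minus), chr9:53801221-53801470 (*Ercc5*, plus), chr6:12333506-12333755 (*Msh6*, minus) and chr3:160648717-160648966 (*Rad21l1*, minus). Capitals mark matches, on either strand, to 7 motifs: an E2F-type site (TTTNNCGC), the CCAAT box (CCAAT), the GC box (GGGCGG), the E-box of clock and Myc factors (CACGTG), the cAMP response element (TGACGTCA), an NRF1-type site (GCGCATGC) and the TATA box (TATAAA).
Atm: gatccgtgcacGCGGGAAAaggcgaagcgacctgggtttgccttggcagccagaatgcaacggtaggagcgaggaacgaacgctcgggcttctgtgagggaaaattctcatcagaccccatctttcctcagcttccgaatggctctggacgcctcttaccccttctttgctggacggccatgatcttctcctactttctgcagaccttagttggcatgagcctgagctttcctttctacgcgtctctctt
Rad50: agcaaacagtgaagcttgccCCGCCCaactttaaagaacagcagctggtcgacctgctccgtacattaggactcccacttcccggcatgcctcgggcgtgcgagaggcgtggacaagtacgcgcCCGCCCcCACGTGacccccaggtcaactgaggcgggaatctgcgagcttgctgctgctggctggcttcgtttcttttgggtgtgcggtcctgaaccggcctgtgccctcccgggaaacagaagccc
Brca1: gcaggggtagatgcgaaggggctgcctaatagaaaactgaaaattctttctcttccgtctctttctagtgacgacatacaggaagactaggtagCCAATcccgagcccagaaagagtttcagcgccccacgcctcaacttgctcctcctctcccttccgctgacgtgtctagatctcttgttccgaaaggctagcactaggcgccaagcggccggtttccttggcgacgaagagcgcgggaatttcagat
Ercc5: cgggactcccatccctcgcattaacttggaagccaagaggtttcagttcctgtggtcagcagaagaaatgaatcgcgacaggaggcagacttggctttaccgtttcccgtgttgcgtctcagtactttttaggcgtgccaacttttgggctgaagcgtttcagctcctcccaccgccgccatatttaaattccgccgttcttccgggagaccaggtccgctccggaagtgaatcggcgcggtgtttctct
Msh6: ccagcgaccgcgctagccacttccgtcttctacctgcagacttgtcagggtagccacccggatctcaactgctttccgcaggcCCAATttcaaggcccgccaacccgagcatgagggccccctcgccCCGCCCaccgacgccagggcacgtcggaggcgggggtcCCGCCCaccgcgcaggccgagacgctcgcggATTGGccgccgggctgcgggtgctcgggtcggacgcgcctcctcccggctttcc
Rad21l1: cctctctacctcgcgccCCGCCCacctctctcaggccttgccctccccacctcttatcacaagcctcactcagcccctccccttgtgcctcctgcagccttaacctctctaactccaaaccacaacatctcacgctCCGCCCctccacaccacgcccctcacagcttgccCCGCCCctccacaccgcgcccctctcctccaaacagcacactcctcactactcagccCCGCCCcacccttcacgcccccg
None of the 6 windows holds a TATA box or a cAMP response element, and no motif is common to all 6. GC boxes lie in *Rad50*, *Msh6* and *Rad21l1*, CCAAT boxes in *Brca1* and *Msh6*, the E2F-type site in *Atm* and the E-box in *Rad50*, next to a GC box, while the *Ercc5* window holds none of the 7. Promoter windows were matched for 61 of the 75 genes. A GC box lay in 63.9% of these, against 55.6% of the 11605 genes tested that have a window and 32.4% of all 27457 windows. The TATA box was rarer, in 1.64% of the DNA repair genes (1 of 61), 6.81% of genes tested and 13.1% of all windows. The E2F-type site lay in 9.84%, 6.51% and 4.35%, the CCAAT box in 39.3%, 34.6% and 34.3%, the E-box in 8.2%, 7.78% and 5.79%, the cAMP response element in 3.28%, 2.71% and 1.7%, and the NRF1-type site in 6.56%, 4.17% and 2.38%, in the same order. Of the 61 windows, 2 held the cAMP response element, 4 the NRF1-type site, 5 the E-box and 6 the E2F-type site. Differences of a few windows thus set these shares. All counts are of matching letters and not of measured binding.

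Of the 10 calls, *Atm* is from the checkpoint group, with 1 of 5 genes higher (20%, against 6.48% of all genes). *Rad50* and *Brca1* are from homologous recombination, with 2 of 14 genes higher (14.3%). Counts of calls by role, here and below, come from small groups and are no result about a pathway. *Atm* encodes the kinase that is switched on by breaks across both strands. Its level was between 22.6 and 32.2 normalised RPM in LSD-treated rats (median 26.7) and between 16.9 and 25.9 in controls (median 21.6). All 10 LSD-treated rats lay above the median of the controls and 6 lay above the highest control, so that the groups overlapped only in part. The log2 fold change of *Atm* was 0.31 (SE, the standard error, 0.081, adjusted p = 0.0165), with 243 to 762 reads per rat. It stayed past the threshold with each of the 20 rats left out in turn (adjusted p from 0.00726 to 0.0338) and with span offsets (0.23, adjusted p = 0.0400). *Atm* overlaps a long non-coding RNA gene in the GRCr8 annotation, and so does *Ercc6* below. The strand setting of the counting is not given in the sources used here, so that reads of overlapping genes may have been mixed. *Rad50* encodes the ATPase arm of the complex with Mre11 and Nbn that tethers broken ends and recruits Atm. It was between 14.6 and 19.1 normalised RPM in LSD-treated rats (median 16.3) and between 10.5 and 16.3 in controls (median 12.9). No control reached the LSD median, and 5 LSD-treated rats lay above the highest control. Its log2 fold change was 0.30 (SE 0.080, adjusted p = 0.0183), and 0.24 with span offsets (adjusted p = 0.0347). *Brca1*, an E3 ubiquitin ligase that steers breaks towards homologous recombination, was low in this tissue, with 11 to 46 reads per rat. LSD-treated rats had between 1.46 and 1.91 normalised RPM (median 1.69) and controls between 0.777 and 1.82 (median 1.24). Of the controls, 9 lay below the lowest LSD-treated rat and Saline rat 6 lay among the highest LSD-treated rats. The log2 fold change was 0.45 (SE 0.124, adjusted p = 0.0198). With reads drawn down to 11098076 in every rat it was 0.29 (adjusted p = 0.251) and did not pass.

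Among the remaining genes of homologous recombination, *Brca2*, which works on resected DNA ends, had a value of 0.31 that did not pass the threshold (SE 0.114, adjusted p = 0.0671). *Nbn*, whose product is in the same complex as Rad50, had 0.17 (adjusted p = 0.451), with levels from 10.4 to 15.5 normalised RPM in LSD-treated rats and a wider spread, from 6.17 to 18.2, in controls. The 14 genes of this group had a median log2 fold change of 0.14, with 2 higher (14.3%, against 6.48% of all genes), none lower and 12 that did not pass. In the checkpoint group, *Atr*, which answers stalled replication and exposed single strands, had 0.20 (adjusted p = 0.155), and *Rad1*, *Rad17* and *Rad18* lay between 0.05 and 0.19.

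**Figure D2:**
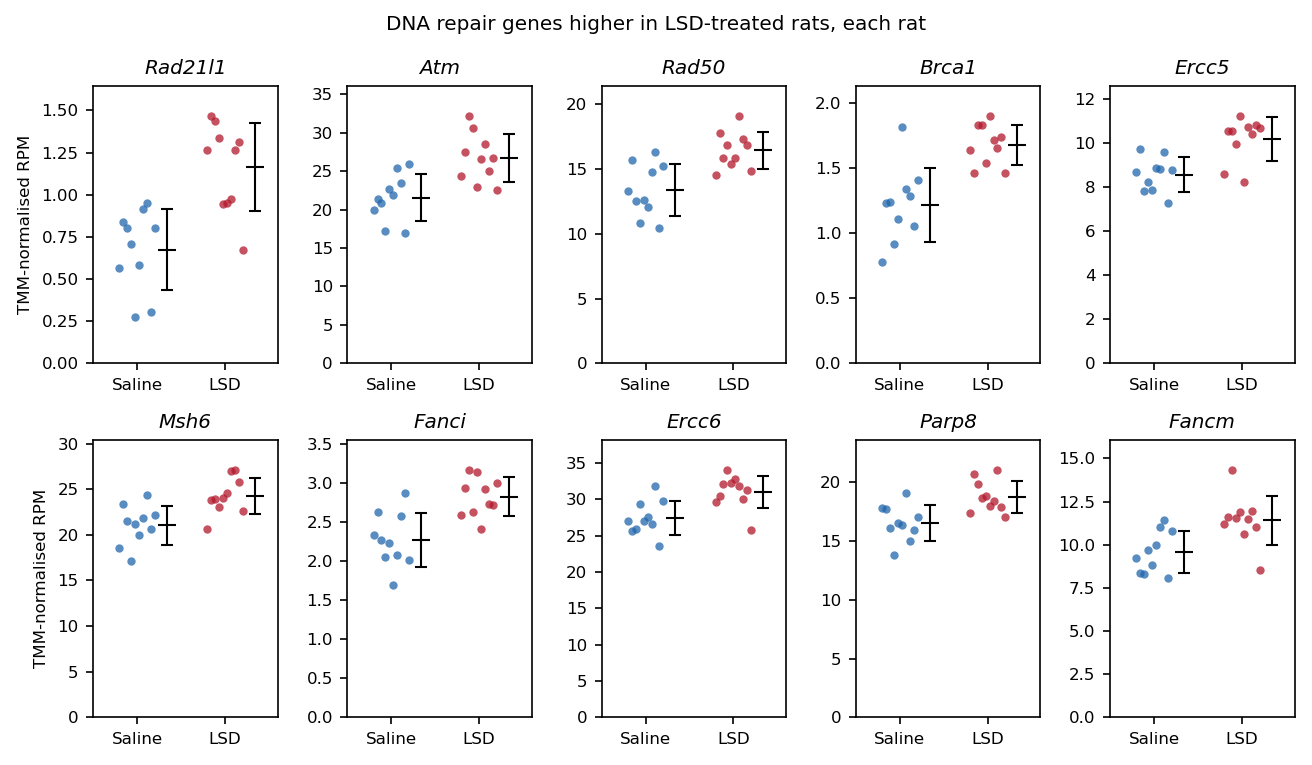
TMM-normalised RPM of the 10 DNA repair genes past the threshold in each rat (points, 10 per group), with the mean and SD as a bar beside each group; each vertical axis starts at 0. LSD-treated rats lie higher on average in every panel, and the groups overlap for all 10 genes.

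Nucleotide excision repair held 2 of the 10 genes, which is 22.2% of its 9 genes, against 6.48% of all genes. *Ercc5*, the nuclease that cuts on the 3′ side of a lesion, had between 8.24 and 11.2 normalised RPM in LSD-treated rats (median 10.5) and between 7.25 and 9.73 in controls (median 8.72). Of the LSD-treated rats, 8 lay above every control, and LSD rats 1 and 6 lay within the range of the controls. Its log2 fold change was 0.25 (SE 0.070, adjusted p = 0.0222), and it stayed past the threshold with each rat left out. It also passed with span offsets (0.20, adjusted p = 0.0499) but not at equal depth (0.20, adjusted p = 0.0822). *Ercc6*, the ATPase that clears RNA polymerase stalled at lesions, had between 25.8 and 34.1 normalised RPM in LSD-treated rats (median 31.6) and between 23.6 and 31.9 in controls (median 27.1). The groups overlapped widely for this gene, and 4 LSD-treated rats lay above the highest control. The log2 fold change was 0.18 (SE 0.056, adjusted p = 0.0370), and 0.11 with span offsets (adjusted p = 0.178). Its partner in this branch, *Ercc8*, had 0.04 (adjusted p = 0.544), and the 9 genes of nucleotide excision repair had a median of 0.04, from -0.07 for the helicase gene *Ercc2* to 0.25 for *Ercc5*.

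All 7 genes of mismatch repair had positive log2 fold changes, between 0.09 and 0.20 with a median of 0.14. Of these, 1 passed the threshold (14.3%, against 6.48% of all genes higher). This was *Msh6*, which helps to recognise single mismatched bases. It had between 20.7 and 27.1 normalised RPM in LSD-treated rats (median 24.0, 229 to 721 reads per rat over all 20) and between 17.1 and 24.3 in controls (median 21.4). Saline rats 2 and 8 lay close to the LSD median and 9 of the 10 LSD-treated rats lay above the control median. The log2 fold change of *Msh6* was 0.20 (SE 0.063, adjusted p = 0.0324), and 0.22 with span offsets (adjusted p = 0.0297). *Mlh3* had 0.14 (adjusted p = 0.130), and *Msh3*, which acts on larger loops, 0.10 (adjusted p = 0.411). *Msh6* overlaps *Fbxo11* in the annotation, with the same limit as for *Atm*.

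In the Fanconi anaemia group, 2 of 10 genes were higher (20%, against 6.48% of all genes). The median span of this group was 55084 bases, and 13.5% of all genes above 32092 bases were higher. *Fanci*, which is modified together with Fancd2 at crosslinks, had between 2.41 and 3.17 normalised RPM in LSD-treated rats (median 2.82) and between 1.70 and 2.87 in controls (median 2.24). Its log2 fold change was 0.31 (SE 0.097, adjusted p = 0.0349), while that of *Fancd2* was 0.03 (adjusted p = 0.884). *Fanci* overlaps *Polg* in the annotation, with the same limit. *Fancm*, a DNA translocase that remodels stalled forks, had between 8.53 and 14.3 normalised RPM in LSD-treated rats (median 11.5) and between 8.06 and 11.4 in controls (median 9.48). LSD rat 3 was the highest and LSD rat 10 lay among the lower controls. Its log2 fold change was 0.25 (SE 0.084, adjusted p = 0.0446). With span offsets neither passed, with log2 fold changes of 0.25 for *Fanci* and 0.20 for *Fancm* (adjusted p = 0.106 for each).

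The remaining calls lie outside the repair pathways proper. *Parp8* encodes a member of the ADP-ribosyltransferase family that attaches single ADP-ribose units and has no established repair role. It had between 17.0 and 21.1 normalised RPM in LSD-treated rats (median 18.5) and between 13.8 and 19.1 in controls (median 16.4). Its log2 fold change was 0.18 (SE 0.059, adjusted p = 0.0400), and 0.08 with span offsets (adjusted p = 0.369). Of the 9 genes with higher Parp numbers, *Parp9* (0.32, adjusted p = 0.112) and *Parp14* (0.30, adjusted p = 0.0853) had larger values that did not pass, and *Parp16*, a transferase of the endoplasmic reticulum, had -0.21 (adjusted p = 0.0758). *Rad21l1* encodes a cohesin subunit known from meiosis. It was near the limit of detection, with 3 to 32 reads per rat. LSD-treated rats had between 0.672 and 1.47 normalised RPM (median 1.26) and controls between 0.278 and 0.952 (median 0.756), and 8 LSD-treated rats lay above the highest control. The log2 fold change of *Rad21l1* was 0.75 (SE 0.196, adjusted p = 0.0155), the largest of the 75, and 0.73 with span offsets (adjusted p = 0.0214). Its mitotic counterpart *Rad21* had 0.13 (adjusted p = 0.215).

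How far single rats carried the calls differed between the genes. *Rad21l1*, *Atm*, *Rad50*, *Brca1* and *Ercc5* passed the threshold in all 20 runs with 1 rat left out, with adjusted p-values of at most 0.0400. *Msh6* passed in 14, and was lost without LSD rat 7, 8 or 9 or Saline rat 1, 4 or 6 (adjusted p from 0.0513 to 0.0660). *Fanci* passed in 11, and was lost without LSD rat 2, 3, 5, 7 or 8 or Saline rat 3, 4, 5 or 6 (0.0506 to 0.0610). *Ercc6* passed in 8, and was lost without LSD rats 3 to 9 or Saline rat 1, 3, 5, 7 or 9 (0.0518 to 0.0706). *Parp8* passed in 8, and was lost without LSD rat 2, 3, 4, 5, 7 or 8 or Saline rat 3, 4, 5, 6, 8 or 9 (0.0532 to 0.0811). *Fancm* passed in 6, and was lost without LSD rat 2, 3, 4, 5, 7, 8 or 9 or Saline rats 1 to 6 or 9 (0.0537 to 0.0856). The log2 fold changes of these 5 genes stayed between 0.15 and 0.35 throughout. The count of DNA repair genes called higher was 10 with all rats, 5 without LSD rat 7 or LSD rat 8, and 6 without LSD rat 5 or Saline rat 3, 4, 5 or 6, and it reached 14 without Saline rat 10. Over the same 20 runs, the share of all genes called higher ranged from 4.02% to 10.1%.

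**Figure D3:**
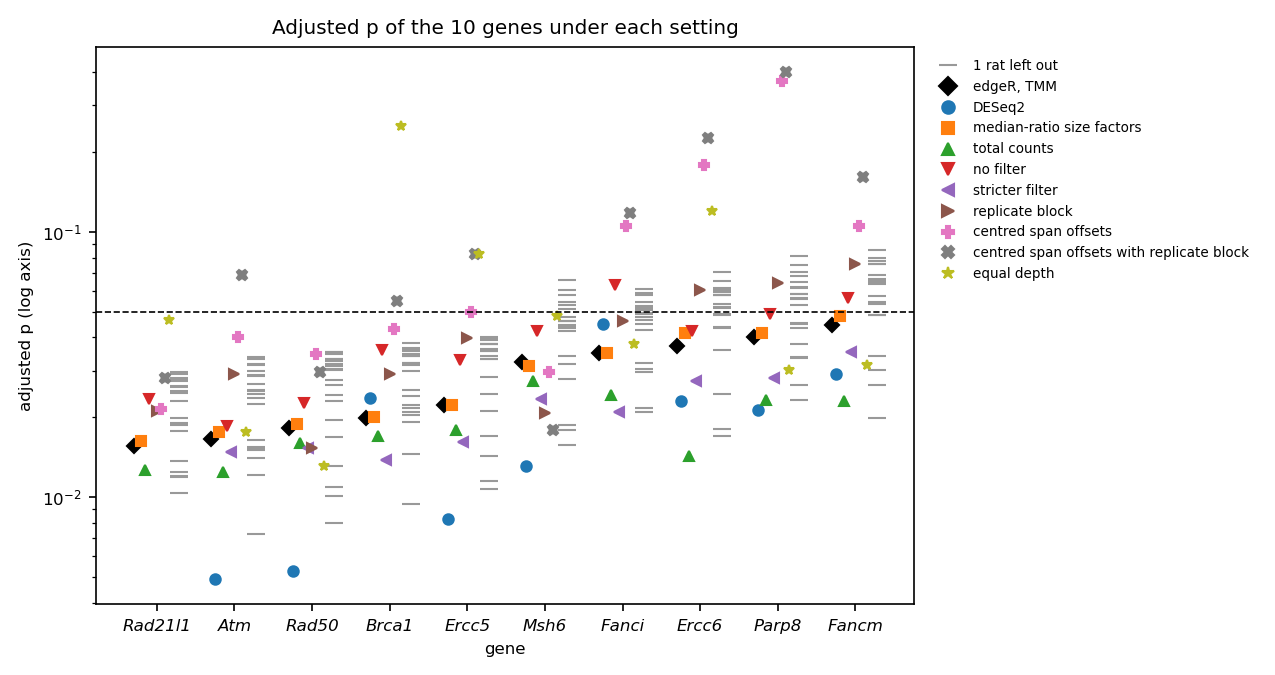
Adjusted p (log axis) of the 10 DNA repair genes in edgeR with TMM, under 9 other settings and with each of the 20 rats left out (grey dashes); the broken line marks 0.05. The first 5 genes stay under the line for every rat left out, while *Ercc6*, *Parp8* and *Fancm* cross it in most of these runs.

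Of the 12 genes of base excision and single-strand break repair none passed, at 6.48% of all genes higher and 8.54% lower, so that a count of 0 in a group of this size is no result about the pathway. Their log2 fold changes had a median of 0.01 and ranged from -0.14 to 0.11. The median span of these genes was 16836 bases, within the shorter genes of which 2.06% were higher over all genes tested. *Parp1*, the sensor of strand breaks and the best-known target of PARP inhibitors, reached 81.6 ± 3.47 normalised RPM in the LSD group and 78.0 ± 5.07 in the Saline group (SD, n = 10 each). Its log2 fold change was 0.07, with a 95% interval from -0.02 to 0.15. *Ogg1*, which removes oxidised guanine, had 7.41 ± 0.354 and 7.52 ± 0.840 normalised RPM in the same order, and a log2 fold change of -0.02 with an interval from -0.16 to 0.11. *Xrcc1*, the scaffold that holds these enzymes at a nick, had 0.00 (interval -0.12 to 0.12). Differences of *Ogg1* and *Xrcc1* beyond those bounds are hence outside the intervals, which does not show that the levels were equal. The 4 genes of end joining had values between 0.06 and 0.18, led by the ligase gene *Lig4* (0.18, adjusted p = 0.162), and none passed. End joining genes outside the naming rule passed in both directions. *Prkdc*, the kinase that Ku recruits to ends, had 0.33 (adjusted p = 0.0235), and *Dclre1c*, the Artemis nuclease that trims them, had 0.37 (adjusted p = 0.0268). *Prkdc* kept its call with each rat left out but not with span offsets (0.23, adjusted p = 0.0730). *Dclre1c* passed with span offsets (0.34, adjusted p = 0.0472) and was lost without LSD rat 7 or Saline rat 4, with adjusted p-values of up to 0.0532. *Poll*, a DNA polymerase of end joining, was lower (-0.21, adjusted p = 0.0235). It kept its call with each rat left out but not with span offsets (-0.15, adjusted p = 0.0692). *Nhej1* (-0.05, adjusted p = 0.841) and *Polm* (-0.11, adjusted p = 0.509) did not pass. These genes outside the rule were named after their values were seen.

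Related or partnered genes were set side by side, without a test of the difference within a pair. *Xrcc5* and *Xrcc6*, the subunits of the Ku ring that binds broken ends, had log2 fold changes of 0.06 and 0.08, the former -0.03 with span offsets. *Apex1* and *Apex2*, which cut at sites that lack a base, had 0.01 and 0.04. *Parp1* and *Parp2* had 0.07 and 0.01, and the ligase genes *Lig1* and *Lig3* had 0.11 and 0.01. None of these 8 genes passed the threshold. *Pms1* and *Pms2*, of the MutL family, had 0.18 and 0.09 and did not pass either. In the pairs of *Msh6* with *Msh3* and of *Atm* with *Atr*, 1 gene of each pair passed and the other had a positive value that did not.

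Other repair genes, 122 symbols that the naming rule does not take in, gave calls in both directions. Of the 118 that were tested, 8 were higher (6.78%) and 11 lower (9.32%), close to the 6.48% and 8.54% of all genes, and their median log2 fold change was 0.05. Their median span was 24740 bases, shorter than the 32092 bases of the DNA repair genes. *Mre11a*, the nuclease that forms a complex with Rad50 and Nbn, had between 10.4 and 13.2 normalised RPM in LSD-treated rats (median 11.8) and between 7.66 and 11.3 in controls (median 9.71). It rose by 0.30 on the log2 scale (SE 0.074, adjusted p = 0.0111), and 7 LSD-treated rats lay above the highest control. Also higher were *Rev3l* (0.33, adjusted p = 0.00680) and *Rev1* (0.23, adjusted p = 0.0205), which copy past lesions, the ubiquitin ligase gene *Shprh* (0.30, adjusted p = 0.00871) and *Smc5* (0.39, adjusted p = 0.0164), a ring protein of chromosome maintenance. *Pold2*, a subunit of DNA polymerase delta, had between 17.1 and 20.6 normalised RPM in LSD-treated rats (median 19.5) and between 19.8 and 28.5 in controls (median 24.2). It fell by 0.35 on the log2 scale (SE 0.069, adjusted p = 0.00571), with all 10 LSD-treated rats below the control median. The log2 fold change was -0.34 for *Babam1*, of a complex that guides Brca1 (adjusted p = 0.00623), -0.34 for the deacylase gene *Sirt6* (adjusted p = 0.0109), -0.24 for *Nsmce1*, a partner of Smc5 (adjusted p = 0.0142) and -0.20 for *Rnaseh2a*, which removes ribonucleotides (adjusted p = 0.0156). With span offsets all of these kept their call, except *Rev1* (adjusted p = 0.0759). *Rad9a*, of the Rad series but outside the naming rule, was also lower (-0.20, adjusted p = 0.0432). It passed with span offsets (-0.27, adjusted p = 0.0206), but in only 5 of the 20 runs with 1 rat left out.

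**Figure D4:**
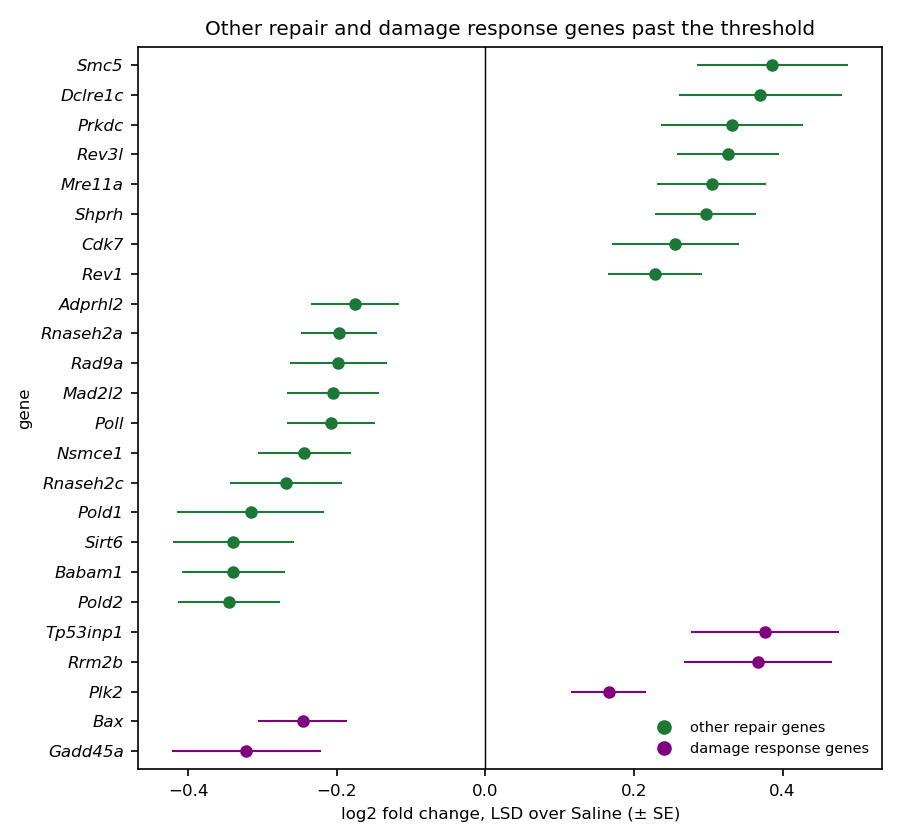
Log2 fold change, with bars of 1 standard error, of the 19 other repair genes (green) and the 5 damage response genes (purple) that passed the adjusted threshold, 10 rats per group. The other repair genes divide into 8 with positive and 11 with negative values, whereas no called gene of the 75 lies below 0. The median span of all other repair genes tested was 24740 bases, against 32092 for the 75.

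The transcriptional response to damage was read from 22 symbols, of which 21 were tested, 3 were higher (14.3%, against 6.48% of all genes) and 2 lower (9.52%, against 8.54%). *Tp53inp1* (0.38, adjusted p = 0.0168), *Rrm2b*, a ribonucleotide reductase subunit used for repair (0.37, adjusted p = 0.0183), and the kinase gene *Plk2* (0.17, adjusted p = 0.0299) rose. *Bax*, which promotes cell death at mitochondria, fell by 0.25 on the log2 scale (adjusted p = 0.0118), and *Gadd45a* fell by 0.32 (adjusted p = 0.0336). The call of *Gadd45a* was lost with span offsets (adjusted p = 0.104). *Plk2* was lost without LSD rat 3, 5 or 8 or Saline rat 1, 4 or 5 (adjusted p from 0.0501 to 0.0633), and *Gadd45a* without LSD rat 3, 4, 8 or 10 or Saline rat 4, 5 or 9 (0.0512 to 0.0652). *Mdm2* had 0.15 (adjusted p = 0.178) and *Cdkn1a* -0.23 (adjusted p = 0.208). Genes of proliferating cells, in which many repair genes are most active, were summed over the 16 of 18 symbols that passed the filter. The sum was between 55.3 and 66.4 normalised RPM in LSD-treated rats (median 60.3) and between 58.1 and 71.5 in controls (median 63.1). None of the 16 passed the threshold, with 1 at an unadjusted p under 0.05 and a median log2 fold change of -0.03. DESeq2 called none of the 10 for which it returned an adjusted p, and gave none for the remaining 6.

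Rats differed in how many of the 10 called genes lay above the control median, which is a description only, since the same rats gave the calls. In LSD-treated rats the number was between 7 and 10 (median 10), with the fewest in LSD rat 10. In controls it was between 1 in Saline rat 9 and 9 in Saline rats 8 and 10. The contrast between long and short genes also differed between rats. It was measured as the mean deviation in log2(normalised RPM + 1) of the longest 20% of all genes minus that of the shortest 20%, and it was between 0.03 and 0.14 in LSD-treated rats and between -0.38 in Saline rat 9 and 0.05 in Saline rat 10. Among LSD-treated rats the lowest contrast was that of LSD rat 9 (0.03), in which all 10 called genes lay above the control median. Next came LSD rat 10 (0.05), with the fewest such genes, and LSD rat 1 (0.06), with 8. LSD rat 7 followed (0.07), with all 10. Among controls, Saline rats 9, 4 and 5 had the lowest contrasts (-0.38, -0.17 and -0.15) and the fewest such genes (1, 2 and 2). Saline rats 10, 7 and 8 had the highest contrasts (0.05, 0.02 and -0.0009) and the most such genes (9, 8 and 9). The remaining controls lay between them in both. A link between the counts and the contrast was not tested. Without Saline rat 9 the count of DNA repair genes called higher was 7. The spread between rats was smaller in the LSD group for 58 of the 75 DNA repair genes (77.3%), and for 76.7% of all genes tested. The median SD of log2(normalised RPM + 1) over these 75 genes was 0.141 in LSD-treated rats and 0.183 in controls.

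The 6 symbols that did not pass the filter were *Ercc4l1*, *Ercc6l*, *Fancd2os*, *Msh4*, *Neil3* and *Rad51ap2*. The most abundant, *Ercc6l*, had 55 reads over all 20 rats, and *Ercc4l1* had 9 reads, all in a single LSD-treated rat. *Neil3*, a glycosylase of dividing cells, had 12 reads, split as 7 in the LSD group and 5 in the Saline group. *Msh4*, known from meiosis, had 17 reads in the LSD group, spread over 9 rats, and 3 reads in the Saline group, in 3 rats. In the fit without a filter it had an unadjusted p of 0.00501 and an adjusted p of 0.0613 by edgeR. None of the 6 passed the threshold in that fit, where *Ercc4l1* was the only other gene of the 6 with an unadjusted p under 0.05.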

How the data were processed

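Poly(A) RNA of 20 rat mPFC samples was sequenced, 1 library per rat, and groups were taken from the sample titles. Trimming by the authors used TrimGalore, alignment to rn6 used HISAT2, and the deposited values are raw counts per gene from HTSeq-count, unfiltered and not normalised. Versions, annotation and strand setting are not given in the sources used here. The matrix holds 5 entries without a gene name, with 25.5% to 29.0% of each library's total, which were left out.

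Genes reaching 5 reads in 10 or more libraries were tested with edgeR 4.0.16 in R 4.3.3 (TMM, quasi-likelihood F test, Benjamini-Hochberg adjustment over 16605 genes, threshold 0.05). Adjusted p-values in the text come from this fit unless DESeq2 1.42.0 is named, and standard errors were derived from its F statistic. The fit was tested on simulated data. The p-values weigh each group difference against the spread between rats, which takes in counting noise, and cover no other source of error. Alternatives were DESeq2, median-ratio or total-count scaling, no filter or at least 10 reads in all 20 libraries, the replicate number as a block, offsets along gene span (50 bins smoothed over 5, centred in each rat, spans for 89.9% of genes), 1 draw of reads to equal depth, and each rat left out.

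Named genes are the members past the threshold, the 3 with the smallest p among negative values, fixed paralog pairs, *Atm*, *Brca1*, *Ogg1*, *Ercc6* and *Parp1*, and at most 5 called genes per direction in the lists of partner and damage response genes. Others are named for context after their values were seen. Some genes are counted in their groups but not reported singly here. The members and lists were chosen with earlier results of these data known.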

Additional observations from a re-analysis of the deposited data

Results flagged for a closer look

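Values of the named genes were screened in each group of 10 rats for a highest or lowest rat separated from the rest by a gap that is large against the group's range (Dixon's test). Of 82 groups screened, 3 held such a rat, and chance gives about 1 in 20. *Apex2* had 4.81 normalised RPM in LSD rat 2, where the next highest LSD-treated rat had 3.91. *Babam1* had 118.5 in LSD rat 1 and at most 99.0 in the remaining LSD-treated rats, and *Sirt6* had 45.7 in the same rat and at most 37.2 in the remaining ones. Without LSD rat 1, both genes stayed lower in LSD-treated rats and past the threshold.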

How the results depend on the processing

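The count of DNA repair genes called higher stayed between 8 and 12 with DESeq2, median-ratio or total-count scaling, no filter, a stricter filter, the replicate block and equal depth, and none was called lower under any of these. The share of all genes called higher moved as well. The DNA repair genes had 10.7% against 3.81% of all genes without a filter, and 16.7% against 9.1% with the stricter filter. At equal depth they had 10.8% against 6.35%, and with the block 10.7% against 8.16%. The count was 6 with span offsets, 3 with span offsets and the replicate block, and 5 to 14 with 1 rat left out, where 0 to 1 were lower (*Parp16*, without Saline rat 8). At equal depth 7 of the 8 were among the 10, without *Brca1*, *Ercc5* and *Ercc6* (adjusted p = 0.120) and with *Ercc6l2*. The cause was not tested. The 3 genes called with span offsets and the block are *Rad21l1*, *Rad50* and *Msh6*, or 4% of the DNA repair genes, below the 4.60% of all genes higher in that fit, while *Atm* (adjusted p = 0.0688), *Brca1* (0.0547) and *Ercc5* (0.0826) did not pass. The sample titles number the rats but name no pairing. Deviations of same-numbered rats had a mean correlation of 0.15 (from -0.26 to 0.47, above 0.1 in 6 of 10 pairs). The mean was -0.02 for rats of unlike number, and 3 of 20 rats correlated best with their own number. These values do not decide whether the numbers mark pairs. With the number as a block, 8 DNA repair genes were higher, 7 of them among the 10, without *Ercc6*, *Fancm* and *Parp8* and with *Ercc6l2*. Of all genes, 1355 were higher and 1606 lower with the block, against 1076 and 1418 without it. All genes called numbered 1632 to 3576 with 1 rat left out. Other repair genes called higher numbered 6 to 19 with 1 rat left out (14 without LSD rat 1, 19 without Saline rat 2). In these runs 4.02% to 10.1% of all genes were higher. Other repair genes called lower numbered 6 with total counts, 6 without a filter, 6 with span offsets and 5 with span offsets and the block. They numbered 7 at equal depth and 7 to 13 with 1 rat left out. Of all genes, 8.54% were lower in the main fit, 5.17% with total counts, 3.32% without a filter and 6.73% with span offsets. The share was 7.97% with span offsets and the block, 7.08% at equal depth and 5.77% to 11.5% with 1 rat left out. Damage response genes called numbered 3 with span offsets and the block, 3 at equal depth and 3 to 6 with 1 rat left out, and proliferation genes 1 at equal depth and 0 to 1 with 1 rat left out. Of all genes, 4.60% were higher and 7.97% lower with span offsets and the block, and 6.35% and 7.08% at equal depth. Of 1187 values of 41 named genes, 1057 kept their direction and side of the threshold, 98 lost the call, 1 gained it and 31 changed sign, none of the last from a called gene. *Ogg1* became 0.0239 with total counts, 0.0410 with span offsets and 0.0460 with the block added. *Xrcc5* became -0.0296 with span offsets and -0.0170 with the block added, *Parp2* -0.0019 with DESeq2 and *Lig1* -0.0258 at equal depth. With 1 rat left out, *Apex1* ranged from -0.0315 to 0.0828, *Apex2* from -0.0073 to 0.0775, *Parp2* from -0.0238 to 0.0387, *Lig3* from -0.0215 to 0.0307 and *Ogg1* from -0.0497 to 0.0063. Depth limits *Rad21l1*, *Brca1* and *Lig1*, each with under 50 reads in every rat.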
